A study of Homo sapiens with 10 samples.

Results

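The GADD45 genes and the PPP1R15 genes encode small groups of stress-response proteins, and 5 of the 20327 genes in each expression table belong to them: GADD45A, GADD45B, GADD45G, PPP1R15A and PPP1R15B. They were taken by gene symbol, matched on the Ensembl gene identifier. Polyadenylated RNA was sequenced from hTERT RPE-1 cells, a telomerase-immortalised line from human retinal pigment epithelium, as part of a study of RNA polymerase II pausing near promoters and DNA supercoiling. All 10 libraries came from wild-type cells held for 48 h in 0.1% FBS. In the first experiment, 3 libraries of cells given 200 µM merbarone for 30 min stood against 3 libraries of cells given DMSO, the vehicle, for 30 min. In the second, 2 libraries of cells given 200 µM merbarone for 2 h stood against 2 libraries of untreated cells, which had received no vehicle. Merbarone is a catalytic inhibitor of topoisomerase II, the enzyme that passes one DNA duplex through a break in another and so relieves supercoils and tangles. The labels do not say whether replicates were separate cultures, so p-values measure the spread between these libraries, which may be technical.

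GADD45 proteins are small acidic proteins with no known enzyme activity of their own. They bind the kinase MAP3K4 and open it to activation, which feeds the p38 and JNK cascades, and they bind PCNA, p21 and the CDK1–cyclin B1 complex. PPP1R15A, also called GADD34, and PPP1R15B, also called CReP, are not GADD45 proteins: each brings the catalytic subunit of protein phosphatase 1 to the translation factor eIF2α and removes the phosphate that stress kinases place on it. PPP1R15A is known as the inducible subunit, whose gene responds to ATF4 and CHOP, and PPP1R15B as the constitutive one.

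Levels are given in RPKM, a read number scaled by gene length and library size, as the authors deposited them. Whole reads could be recovered from the values, with 26633780 to 38225538 reads per library in the 30 min experiment and 11956652 to 13691014 in the 2 h experiment. The members other than GADD45G were well covered, with 534 to 3270 reads per library for GADD45A, 1306 to 6502 for GADD45B, 1699 to 4461 for PPP1R15A and 618 to 2295 for PPP1R15B. Of 11 markers of retinal pigment epithelium, 4 (BEST1, OTX2, PAX6 and PMEL) had a mean of at least 1 RPKM, while the defining markers RPE65, RLBP1, TYR, TYRP1 and TTR were near 0, RPE65 lying between 0.00252 and 0.0656 RPKM. The summed level of these 11 markers was 10.4 to 14.3 RPKM in the 30 min experiment and 27.2 to 30.9 in the 2 h experiment, with no gap between treated and control ranges in either. Summed leukocyte markers reached at most 0.266 RPKM and summed endothelial markers at most 0.0776. Of 6 mesenchymal and fibroblast markers, 5 had a mean of at least 1 RPKM. The summed level of all 6 was the highest of the lists, at 846 to 1375 RPKM in the 30 min experiment. It was 893 RPKM in untreated cells and 898 to 910 after 2 h of merbarone. VIM alone was at 560 to 1105 RPKM over all libraries. Summed neuronal markers were 8.58 to 19.3 RPKM, mostly TUBB3. The summed level of 5 keratin and junction genes was 63.1 to 69.5 RPKM in untreated cells and 71.6 to 77.4 after 2 h of merbarone. In the 30 min experiment it was 17.3 to 26.2 RPKM. Most of it was KRT18, at 14.1 to 69.4 RPKM over all libraries, while KRT19 reached at most 0.0190 and CDH1 at most 0.00234. The part of this gap, or of that in the mesenchymal list, in the 2 h results was not tested.

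In the GRCh37 annotation GADD45A (ENSG00000116717) lies on chromosome 1 at 68150884 to 68154017 on the plus strand, and GADD45B (ENSG00000099860) on chromosome 19 at 2476120 to 2478257, plus. GADD45G (ENSG00000130222) lies on chromosome 9 at 92219927 to 92221470, plus. PPP1R15A (ENSG00000087074) lies on chromosome 19 at 49375469 to 49379316, plus, and PPP1R15B (ENSG00000158615) on chromosome 1 at 204365620 to 204381015, minus. PPP1R15B was the one member that overlapped other annotated genes, 2 long non-coding RNAs on the opposite strand, neither of which is in the tables. Strand-specific counting is not stated in the sources used here, so reads of these genes cannot be told apart from those of PPP1R15B.

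The RefSeq promoter table used here has no entry for GADD45A. Promoter sequences are shown for the other 3 of the 4 members that were higher at 2 h. Each is the 250 bases before the annotated start, 5′ to 3′ on the gene's strand, in GRCh38.p14. The windows are chr19:48872171-48872420 for PPP1R15A, chr19:2475877-2476126 for GADD45B and chr1:204411818-204412067, minus strand, for PPP1R15B. Capitals mark matches on either strand to TGACGTCA (the cAMP response element), TGATGCAA (a C/EBP-ATF composite), TGANTCA (AP-1), GCGNGGGCG (EGR), CACGTG (E-box), CCAAT and TATAAA.
PPP1R15A: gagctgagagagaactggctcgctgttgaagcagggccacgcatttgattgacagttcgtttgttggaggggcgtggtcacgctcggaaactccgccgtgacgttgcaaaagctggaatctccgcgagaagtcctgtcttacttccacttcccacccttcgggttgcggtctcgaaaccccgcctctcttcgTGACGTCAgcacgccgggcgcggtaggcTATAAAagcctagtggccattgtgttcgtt
GADD45B: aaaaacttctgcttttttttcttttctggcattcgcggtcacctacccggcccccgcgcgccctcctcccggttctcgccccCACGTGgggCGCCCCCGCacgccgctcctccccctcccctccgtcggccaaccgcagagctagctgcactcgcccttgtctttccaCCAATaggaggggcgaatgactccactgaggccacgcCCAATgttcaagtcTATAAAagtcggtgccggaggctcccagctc
PPP1R15B: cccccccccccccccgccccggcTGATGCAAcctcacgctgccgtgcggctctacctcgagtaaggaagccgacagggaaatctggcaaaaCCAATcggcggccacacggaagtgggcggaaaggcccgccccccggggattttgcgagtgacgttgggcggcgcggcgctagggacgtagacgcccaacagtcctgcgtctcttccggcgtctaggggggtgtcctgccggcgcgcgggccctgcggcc

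The promoter of PPP1R15A held TGACGTCA 58 bases before the start and TATAAA 30 bases before it. That 8-base element, which contains the TGACG motif on both strands, was present in 1.77% of the 27305 promoters in the table, in windows of 250 bases. TGACG itself, found in 21.7% of promoters, also occurred once more in PPP1R15A, 152 bases before the start, and once in PPP1R15B, 101 bases before it. The GADD45B promoter held TATAAA at 31 bases, CCAAT at 82 and 45, CACGTG at 168 and a reverse-strand EGR match at 159. PPP1R15B held TGATGCAA at 227 bases, a sequence in 0.820% of promoters, and CCAAT at 159, and it had no TATAAA. It also had 4 matches to the GC box GGGCGG, which 42.3% of promoters hold. In GADD45G, CCAAT lay at 79 bases and CACGTG at 143. TGANTCA was in none of the 4 windows, against 6.60% of all promoters. The shares for the other motifs were 11.1% for TATAAA, 33.0% for CCAAT, 6.49% for CACGTG and 8.25% for GCGNGGGCG. The GC content was 57.2% in PPP1R15A, 61.6% in GADD45G, 63.2% in GADD45B and 70.8% in PPP1R15B, beside a median of 58% over all promoters. These matches describe letters in a window and are not evidence of binding.

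After 2 h of merbarone, RNA of GADD45A, GADD45B, PPP1R15A and PPP1R15B was higher than in untreated cells, and the sizes differed widely. GADD45A rose 5.07-fold in mean RPKM, GADD45B 3.92-fold, PPP1R15A 2.39-fold and PPP1R15B 1.31-fold. GADD45G was listed at 0 in all 10 libraries. In limma on log2(RPKM + 1), with Benjamini-Hochberg adjustment over 6620 genes and a threshold of 0.05, 4 of the 4 members tested were called higher. The background was 13.1% of genes called in either direction and 5.98% called higher, against 7.1% called lower. Of the genes called, 45.7% were higher, against 52.4% with median scaling, 53.8% with quantile normalization, 38.2% with the replicate block, 57.0% with voom on genes of 10 or more reads and 90.6% with no filter on low values. The members that were called were higher under each of these. In these bulk samples, more cells expressing a gene and more RNA per cell cannot be told apart. The untreated cells had received no vehicle. Merbarone and any vehicle given with it therefore cannot be told apart in any 2 h change, for members or lists.

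GADD45A, a member known for its induction by DNA damage, stood at 13.2 and 13.6 RPKM in the untreated libraries and at 59.5 and 76.5 RPKM after 2 h of merbarone. Both treated libraries lay far above both controls, and the treated pair differed more from each other than the controls did. The log2 fold change was 2.25 (SE 0.13, 95% confidence interval 1.95 to 2.55, adjusted p = 1.74e-05 in limma). It was number 7 in the order of rises among the 6620 genes tested.

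GADD45B, a member known for responding to cytokines and NF-κB as well as to stress, stood at 45.8 and 62.1 RPKM in untreated cells and at 222 and 200.6 RPKM after merbarone. It was the most abundant member in every library of the 2 h experiment, and it gained the most RPKM, 157 on the difference of means against 54.6 for GADD45A and 52.1 for PPP1R15A. Its log2 fold change was 1.96 (SE 0.15, 95% confidence interval 1.62 to 2.31, adjusted p = 8.01e-05 in limma), number 14 in the order of rises. Between libraries that share a replicate number the change was 2.25 and 1.68 on the log2 scale.

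PPP1R15A stood at 36.2 and 38.7 RPKM in untreated cells and at 87.8 and 91.4 RPKM after merbarone. The replicates were close in both groups, with an SD of 1.81 RPKM in untreated and 2.53 in treated libraries, so the gap of 52.1 RPKM was many times the spread. The log2 fold change was 1.24 (SE 0.11, 95% confidence interval 0.99 to 1.48, adjusted p = 1.66e-04 in limma), number 44 in the order of rises.

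PPP1R15B stood at 6.62 and 6.15 RPKM in untreated cells and at 8.55 and 8.12 RPKM after merbarone. The groups did not overlap, which was also true of 61.5% of all genes tested at 2 h, with the treated libraries above in 22.5%. Its log2 fold change was 0.34 (SE 0.09, 95% confidence interval 0.13 to 0.55, adjusted p = 0.0432 in limma), number 345 in the order of rises. The call was lost without merbarone 2 h replicate 1 (adjusted p = 0.419), without merbarone 2 h replicate 2 (adjusted p = 0.214), and with all 10 libraries in 1 fit (adjusted p = 0.0599). The first 2 of these leave 1 treated library, which is assumed to vary like the untreated pair, and the log2 fold changes were then 0.30 and 0.37. With no filter on low values, GADD45A (adjusted p = 0.0502), GADD45B (adjusted p = 0.0780) and PPP1R15B (adjusted p = 0.121) all missed the threshold in limma.

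GADD45G, the family member linked to growth arrest and differentiation, had no recovered read in any library. A count of 0 allows up to 3 reads per library, which over the gene's span is 0.0508 to 0.163 RPKM. These limits cover counting error only, because the reads carry no molecular identifiers. No fold change was computed, and with every value at 0 no test could separate the groups.

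**Figure D1:**
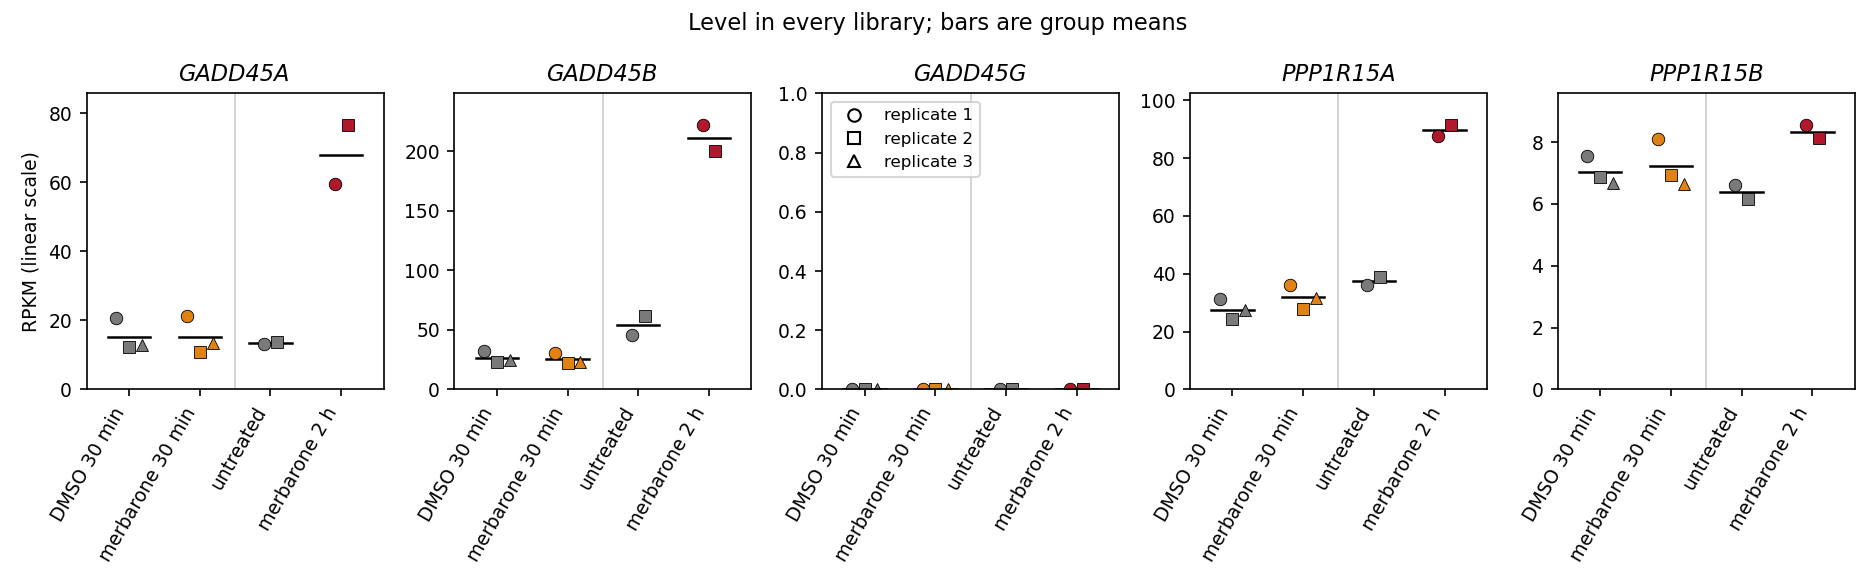
Level of each member in each library, in RPKM on a linear axis, for the 4 groups, with a bar at the group mean and the marker shape giving the replicate number. GADD45A, GADD45B and PPP1R15A have both 2 h merbarone libraries far above both untreated libraries, the 30 min groups overlap for all 4 detected members, and GADD45G is at 0 throughout.

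After 30 min of merbarone no member was called against DMSO. In limma 0 of the 4 tested members passed the threshold, beside 0.0154% of the 6500 genes tested, which is 1 gene. At an unadjusted p under 0.05 there were 24 such genes, 0.369%, and no member was among them. The adjusted p was 1.00 for each of the 4 members. Pairing the libraries by replicate number in the model gave 8 called genes, 0.123%, again with no member among them.

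The 30 min levels were spread mainly by replicate number. GADD45A was 20.6, 12.4 and 13.0 RPKM in DMSO replicates 1, 2 and 3, and 21.4, 10.9 and 13.4 RPKM in merbarone replicates 1, 2 and 3. GADD45B was 31.9, 23.1 and 24.5 RPKM in DMSO and 30.9, 21.8 and 22.7 RPKM in merbarone. In both groups replicate 1 was highest for all 4 detected members, and the groups overlapped for each of them. Groups that did not overlap were found for 2.28% of all genes tested. The log2 fold change was -0.02 for GADD45A (95% confidence interval -0.70 to 0.65). For GADD45B it was -0.08 (95% confidence interval -0.49 to 0.34). The sign of the GADD45A value turned when single libraries were left out, with a range of -0.28 to 0.19. The intervals come from the main fit, which left out the pairing by replicate number. They do not reach the 2 h values of either gene.

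PPP1R15A was 31.1, 24.2 and 27.5 RPKM in DMSO replicates 1 to 3 and 36.1, 27.8 and 31.6 RPKM in the 30 min merbarone libraries. Each merbarone library exceeded the DMSO library with its own number, by 0.19 to 0.21 on the log2 scale, although the groups overlapped. All 3 pairs were higher for 8.72% of the genes tested. In the main fit, which left out the pairing, the log2 fold change was 0.20 (SE 0.13, 95% confidence interval -0.11 to 0.50), number 28 in the order of the 6500 genes. With the replicate block its adjusted p was 0.606 in limma, so the call did not change. PPP1R15B was 7.54, 6.86 and 6.69 RPKM in DMSO and 8.11, 6.95 and 6.65 RPKM in merbarone. Its log2 fold change was 0.03 (95% confidence interval -0.17 to 0.24).

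**Figure D2:**
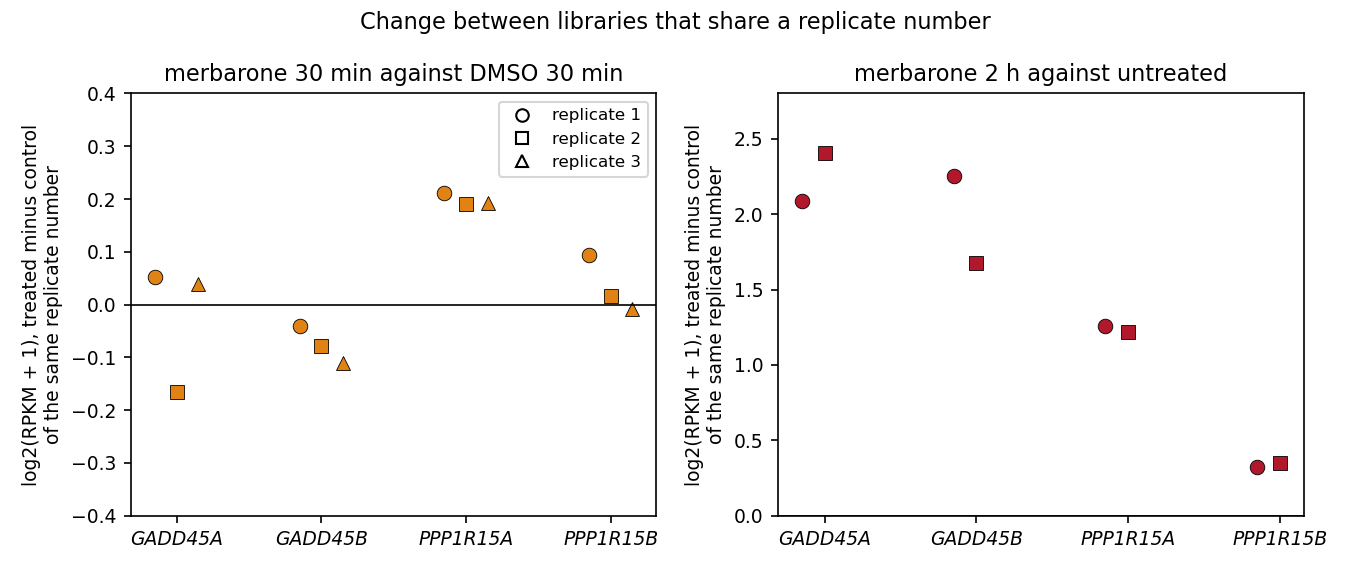
Difference of log2(RPKM + 1), treated minus control, between libraries that share a replicate number, for the 4 detected members, with the 30 min and the 2 h experiment in separate panels. At 30 min the 3 PPP1R15A points lie together at 0.19 to 0.21 and the 3 GADD45B points at -0.11 to -0.04, while at 2 h every point of GADD45A, GADD45B and PPP1R15A lies above 1.

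Whether the effect differed between the experiments was tested as a contrast over all 10 libraries and 6558 genes, in which 1.63% of genes were called and 1.27% were called as higher at 2 h. Of the 4 members tested, 3 were called in this fit, which left out the pairing by replicate number. The 2 h effect exceeded the 30 min effect by 2.27 for GADD45A (SE 0.39, 95% confidence interval 1.40 to 3.14, adjusted p = 0.0225 in limma). For GADD45B it exceeded it by 2.04 (SE 0.27, 95% confidence interval 1.43 to 2.65, adjusted p = 0.00597 in limma). For PPP1R15A the excess was 1.04 (SE 0.18, 95% confidence interval 0.63 to 1.44, adjusted p = 0.0247 in limma). For PPP1R15B it was 0.30 (SE 0.12, 95% confidence interval 0.02 to 0.58) and the adjusted p of 0.277 missed the threshold. With the replicate block the PPP1R15B difference was called (adjusted p = 0.0213), along with 1255 genes in place of 107. The other 3 members kept their calls with the block. Their adjusted p in limma was 4.94e-05 for GADD45A, 3.25e-04 for GADD45B and 2.05e-04 for PPP1R15A. In this contrast time, kind of control and experiment cannot be told apart. Of the 107 genes called, 77.6% were higher at 2 h, against 87.3% with median scaling, 88.6% with quantile normalization, 40.2% with the replicate block and 55.5% with voom and the block.

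The GADD45B difference kept its call without any 1 of the 10 libraries, with adjusted p between 0.00266 and 0.0459 in limma. The GADD45A difference lost its call without untreated replicate 1 (adjusted p = 0.0711), untreated replicate 2 (0.0998), merbarone 2 h replicate 1 (0.0747), merbarone 2 h replicate 2 (0.128) or merbarone 30 min replicate 3 (0.0600). The PPP1R15A difference lost its call without the same 5 libraries (adjusted p = 0.0716, 0.0825, 0.111, 0.128 and 0.0632 in that order) and without DMSO replicate 3 (adjusted p = 0.0586). Leaving out replicate 1 of both 30 min groups together, a setting chosen after seeing the data, gave differences of 2.31 for GADD45A, 2.06 for GADD45B and 1.04 for PPP1R15A, all called, with adjusted p of 0.000787, 0.00108 and 0.00749 in limma. None of the fits with libraries left out held the pairing by replicate number.

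**Figure D3:**
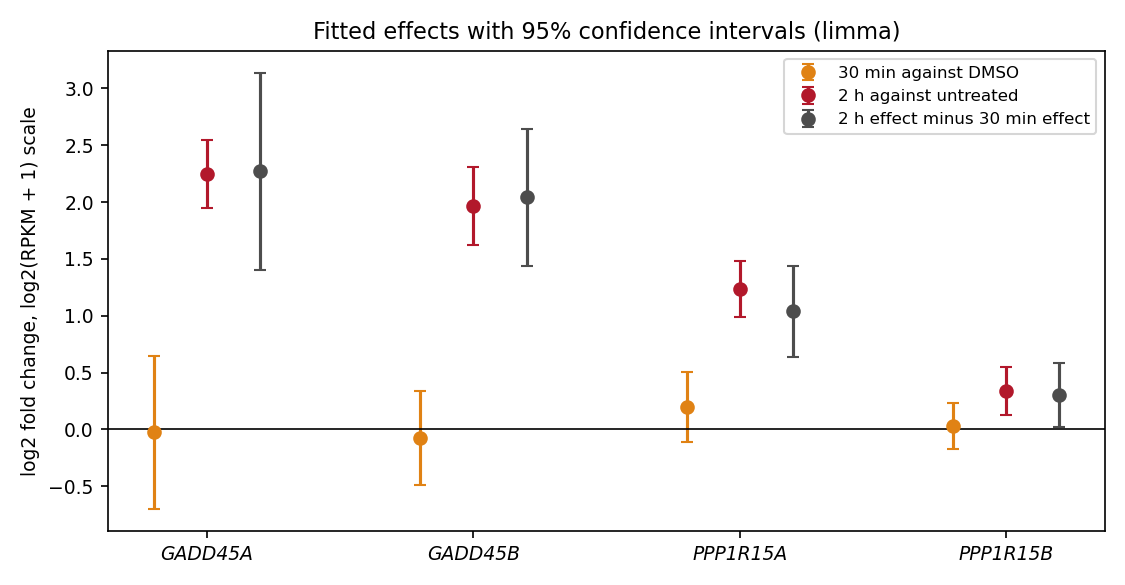
Fitted log2 fold change at 30 min, at 2 h and their difference for the 4 tested members, on the log2(RPKM + 1) scale, with 95% confidence intervals from limma. The 30 min intervals all include 0, the 2 h intervals all lie above 0, and the order at 2 h runs from GADD45A at 2.25 to PPP1R15B at 0.34.

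In RPKM, the order of the members changed between the experiments. In DMSO, PPP1R15A (27.6 ± 3.43 RPKM, SD, n = 3) and GADD45B (26.5 ± 4.70 RPKM) overlapped, followed by GADD45A (15.3 ± 4.55 RPKM) and PPP1R15B (7.03 ± 0.449 RPKM). In untreated cells GADD45B was at 53.9 ± 11.5 RPKM (SD, n = 2), above PPP1R15A at 37.5 ± 1.81, GADD45A at 13.4 ± 0.292 and PPP1R15B at 6.38 ± 0.337, with no overlap between neighbours. The same order held after 2 h of merbarone, where the levels were 211 ± 15.2, 89.6 ± 2.53, 68.0 ± 12.0 and 8.33 ± 0.304 RPKM. The order depends on the gene length used. The RPKM values imply 3279 bases for GADD45A, whose exons sum to 1925 in the annotation, against 3667 and 3433 for PPP1R15A. On summed exon length, a setting chosen after seeing the data, GADD45A stood above PPP1R15A after 2 h of merbarone, at 116 ± 20.5 against 95.7 ± 2.71 (SD, n = 2). In DMSO, GADD45A at 26.1 ± 7.75 (SD, n = 3) then overlapped both GADD45B and PPP1R15A. In RPKM, GADD45B stood higher in untreated cells of the second experiment than in any DMSO library of the first. That gap was not tested, because vehicle and experiment cannot be told apart in it.

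Ratios within a library are free of depth but not of the gene lengths used. The ratio of PPP1R15A to PPP1R15B, the inducible to the constitutive eIF2α phosphatase subunit, was 5.46 to 6.30 in untreated cells and 10.3 to 11.3 after 2 h of merbarone, with no overlap. At 30 min it was 3.53 to 4.12 in DMSO and 3.997 to 4.75 in merbarone, which overlap. On summed exon length the same ratio was 6.48 to 7.48 in untreated cells and 12.2 to 13.3 after 2 h. The gap at 2 h restates the unequal rises of the 2 genes. For single genes, groups did not overlap for 61.5% of those tested at 2 h. The ratio of GADD45B to GADD45A was 3.47 to 4.56 in untreated cells and 2.62 to 3.73 after 2 h, ranges that overlap. In the 30 min experiment it was 1.55 to 1.89 in DMSO and 1.45 to 1.99 in merbarone. On summed exon length this ratio was lower throughout, at 0.910 to 1.11 in DMSO, 0.851 to 1.17 in 30 min merbarone, 2.04 to 2.68 in untreated cells and 1.54 to 2.19 after 2 h. The summed level of GADD45A and GADD45B was 59.0 to 75.7 RPKM in untreated cells and 277 to 281 RPKM after 2 h.

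The genes around PPP1R15A in the eIF2 cycle did not pass the test at 2 h. Of 17 genes for the eIF2 kinases, eIF2 and eIF2B subunits, phosphatase catalytic subunits and kinase inhibitors, 13 were tested, 0 were called in either direction, and the median log2 fold change was 0.00 beside -0.05 over all genes. With the replicate block 1 of them was called lower, and without untreated replicate 1, 2 were called higher and 1 lower. The phosphatase catalytic subunits that PPP1R15A and PPP1R15B recruit had log2 values of -0.17 for PPP1CA (adjusted p = 0.241 in limma), 0.04 for PPP1CB (adjusted p = 0.843) and 0.00 for PPP1CC (adjusted p = 1.000). Among the eIF2 kinases, EIF2AK1 (the heme-regulated kinase) had -0.16 and EIF2AK2 (PKR, which senses double-stranded RNA) had 0.08, neither past the threshold. EIF2AK3 (PERK, which senses stress in the endoplasmic reticulum) went from 0.456 to 0.528 RPKM and EIF2AK4 (GCN2, which senses amino acid shortage) from 0.949 to 0.857 RPKM, both below the filter of a mean of 1 RPKM. Implied gene lengths matched the genomic span for 74.9% of genes, so a value below the filter need not mean little RNA. RNA levels say nothing of the phosphorylation of eIF2α.

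Most of the tested genes downstream of eIF2α phosphorylation were higher at 2 h. Of 18 genes in the list for the ATF4 arm of the integrated stress response, 14 were tested at 2 h and 11 were called higher, 0 lower, with a median log2 fold change of 1.35. Over all genes tested, 5.98% were called higher. This list was drawn up with earlier results of these data known, and its count is a description. CHAC1, which breaks down glutathione, went from 0.448 to 26.7 RPKM. DDIT4, an inhibitor of mTORC1, went from 28.9 to 235 RPKM, and SESN2, a leucine-sensing mTORC1 regulator, from 0.818 to 6.59 RPKM. DDIT3, which encodes CHOP, a known activator of PPP1R15A transcription, went from 7.90 to 34.2 RPKM, with a log2 fold change of 1.98 (SE 0.12, adjusted p = 1.74e-05 in limma), near those of GADD45A and GADD45B. ATF4 RNA itself was 49.4 ± 5.46 RPKM in untreated and 63.0 ± 4.32 RPKM in treated cells (SD, n = 2). Its log2 fold change of 0.35 missed the threshold (adjusted p = 0.0962 in limma). It passed with the replicate block (adjusted p = 0.00993) and with quantile normalization (adjusted p = 0.0165). With voom it passed on genes averaging 1 RPKM or more (adjusted p = 0.0306) and on genes of 10 or more reads (adjusted p = 0.0330). It also passed with voom and the block (adjusted p = 0.00142). The other settings that kept all libraries left ATF4 uncalled. ATF4 is known to be controlled mainly at translation, which these data do not measure. With no filter on low values 4 genes of this list were called higher, and with a mean of at least 5 RPKM 6 were. With the replicate block 1 gene of it was called lower.

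Among the partners of GADD45 proteins, 10 of 14 genes were tested at 2 h, 1 was called higher and 2 lower, and the median log2 fold change was -0.06. Over all genes tested, 5.98% were called higher and 7.1% lower. The one that rose was CDKN1A, which encodes the cell-cycle inhibitor p21, from 36.2 to 106 RPKM (log2 fold change 1.50, SE 0.15, adjusted p = 3.85e-04 in limma). With no filter on low values CDKN1A missed the threshold (adjusted p = 0.0922 in limma) and no gene of this list was called higher. CCNB1, the cyclin B1 gene, had a log2 fold change of -0.46 (adjusted p = 0.0283 in limma) and GADD45GIP1, a mitochondrial ribosomal protein gene named for binding GADD45 proteins, one of -0.46 (adjusted p = 0.0498). Both of these calls were lost with quantile normalization (adjusted p = 0.0858 and 0.0939) and in other settings. MAP3K4, the kinase that GADD45 proteins open, was below the filter, at 0.310 RPKM in untreated and 0.335 RPKM in treated cells. As for the eIF2 kinases below the filter, such a value need not mean little RNA.

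Of 18 genes for transcription factors known to act on GADD45 genes, 8 were tested at 2 h and 4 were called higher, 0 lower, with a median log2 fold change of 0.42. Over all genes tested, 5.98% were called higher. The 4 were EGR1 with a log2 fold change of 4.02, JUN with 1.82, JUND with 0.93 and MYC with 0.76, all known as growth or stress response factors. With no filter on low values JUND (adjusted p = 0.100 in limma) and MYC (adjusted p = 0.103) missed the threshold, as MYC did with all 10 libraries in 1 fit (adjusted p = 0.0749). Of 10 genes for DNA demethylation partners of GADD45 proteins, 4 were tested and 1 was called, beside 13.1% of all genes called in either direction. This was the DNA glycosylase gene MBD4, with a log2 fold change of 0.36 (adjusted p = 0.0447 in limma). The MBD4 call was lost with no filter on low values (adjusted p = 0.180 in limma) and without untreated replicate 2 (0.0619), merbarone 2 h replicate 1 (0.164) or merbarone 2 h replicate 2 (0.221).

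At 30 min none of the 5 lists had a called gene, over 14, 10, 10, 9 and 4 genes tested in the order given above. With the replicate block 1 gene of the transcription factor list was called higher at 30 min, and with voom and the block 2 genes of that list and 1 of the ATF4 list were. In the contrast of the 2 effects, 9 of 13 tested genes of the ATF4 list and 1 of 10 partner genes were called as higher at 2 h, and none in the other 3 lists. Over all genes tested the share called as higher was 1.27%. The difference was 1.51 for EGR1 (adjusted p = 0.361 in limma) and 1.23 for JUN (adjusted p = 0.0617). The replicate block changed the counts of the contrast: 4 genes of the transcription factor list, 2 partner genes and 1 demethylation gene were called as higher at 2 h, and 2 partner genes and 1 gene of the eIF2 list as lower. With voom and the block, 6 genes of the transcription factor list were called as higher.

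**Figure D4:**
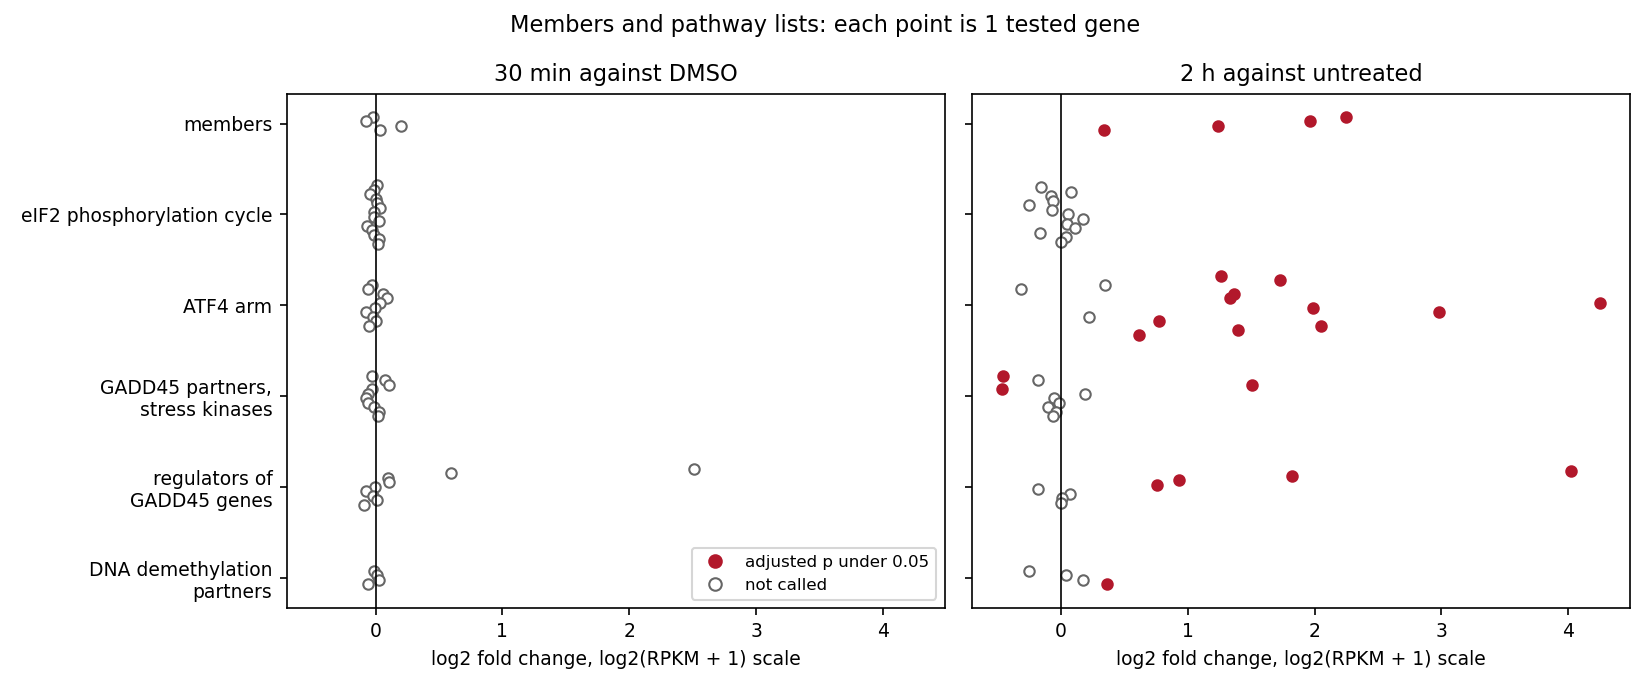
Log2 fold change on the log2(RPKM + 1) scale of each tested gene in the member group and the 5 lists, 30 min and 2 h in separate panels, with filled points for an adjusted p under 0.05 in limma. At 30 min no point is filled, and at 2 h all 4 members and 11 of 14 genes of the ATF4 list are filled to the right of 0 while the eIF2 list sits around 0.

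The genes whose levels ran most like each member were found by Pearson correlation of log2(RPKM + 1) over the 10 libraries, each library set against its own experiment's controls, among 6558 genes. The values are descriptions: the points share libraries and depth, and most of their spread is the step at 2 h. For GADD45A the nearest were HERPUD1 (r = 0.988), HBEGF (0.987) and TIPARP (0.986). For GADD45B they were PPP1R3B (0.990), HERPUD1 (0.989) and SERTAD1 (0.989). For PPP1R15A they were RNF41 (0.988), KIRREL1 (0.984) and IER3 (0.982), and for PPP1R15B TSPYL4 (0.976), HACD2 (0.975) and ENSG00000258466 (0.972). Between the members themselves r was 0.981 for GADD45A with GADD45B, 0.975 for GADD45A with PPP1R15A and 0.968 for GADD45B with PPP1R15A, and 0.908 to 0.933 for PPP1R15B with the others. A like course did not mean a like size, since HERPUD1 had a 2 h log2 fold change of 0.74 and HACD2 one of 0.16.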

How the data were processed

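Each library has its own table, in which the authors deposited RPKM by Ensembl gene identifier (per the file headers), neither log-transformed nor pooled. Bowtie 1.2.0, deepTools 2.4.1, DESeq2, edgeR and the build hg19/GRCh37 are named in the submitters' processing notes. The read counter, its strand setting and the annotation are not given in the sources used here. The TruSeq Stranded mRNA kit was used on 150 ng of RNA, per the labels' protocols. Of 20327 genes, 19174 were given a symbol other than their identifier.

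For all 17680 genes with a value above 0, 100% of values were whole multiples of the value of 1 read (tolerance 0.001 reads), so reads were recovered. The step totals and summed reads differed by at most 0.0057%. On simulated reads 99.6% of 17384 genes were recovered exactly. Implied gene lengths lay within 1% of the genomic span for 74.9% of 17234 genes and within 1% of the summed exon length for 1.60%, so RPKM of genes with long introns is low. The implied lengths were 3279 bases for GADD45A, 2139 for GADD45B, 3667 for PPP1R15A and 8408 for PPP1R15B.

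Tests used limma 3.58.1 in R 4.3.3 (lmFit, eBayes with trend) on log2(RPKM + 1) for genes averaging 1 RPKM or more in the fitted libraries, two-sided, with Benjamini-Hochberg adjustment and a threshold of 0.05. This scale understates changes of low genes. Each experiment was fitted on its own libraries. On simulated data limma called 195 of 195 changed genes and 50 unchanged ones among 6398 at 30 min, and 197 of 197 and 14 unchanged among 6587 at 2 h. The 50 unchanged genes are a larger share of the 30 min calls than the threshold of 0.05 aims at. The simulated reads had a fixed spread setting and no effect of replicate number, unlike the 30 min libraries. These counts therefore do not measure the power for the members. Recovery, summaries and plots ran in Python 3.11.15 (matplotlib 3.10.9, SciPy 1.17.1, pandas 2.3.3, NumPy 2.4.6).

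The members and lists were chosen with earlier results of these data known. The text names all members, up to 4 genes with the largest called change per list, fixed genes of the pathway (catalytic subunits, eIF2 kinases, ATF4, DDIT3, MAP3K4 and CDKN1A, with 1 further gene of that rule not reported here), and the 3 genes most like each member. Replicate numbers come from the labels. Deviations from the group means of same-numbered libraries correlated at 0.925, 0.646 and 0.605 in the 30 min experiment, so the numbers were taken to pair the samples there. The main fits, the contrast of the 2 effects included, nevertheless left this pairing out. Only the settings with the replicate block held it. In the 2 h experiment, with 2 pairs, the samples share only a number. Other settings tried were leaving out each library, the replicate block, a filter at 5 RPKM or none, 0.1 as pseudocount, scaling by the median or by quantiles, no trend, a joint fit of the 10 libraries, and limma's voom on recovered reads. Leaving out replicate 1 of both 30 min groups, and levels on summed exon length, were added after seeing the data. Promoters come from a RefSeq table in GRCh38.p14, in which 4 of the 5 members matched (all but GADD45A). Gene positions are from the GRCh37 annotation.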

Additional observations from a re-analysis of the deposited data

Results flagged for a closer look

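For 3 members, a test of the difference itself found unequal effects of merbarone in the 2 experiments. The 2 h effect exceeded the 30 min effect by 2.27 for GADD45A, 2.04 for GADD45B and 1.04 for PPP1R15A on the log2(RPKM + 1) scale. Over the 21 alternatives tried for each, adjusted p ran from 3.62e-08 to 0.128 for GADD45A, from 5.03e-07 to 0.0459 for GADD45B and from 1.13e-06 to 0.128 for PPP1R15A in limma. Exposure time, vehicle and experiment cannot be told apart in these differences.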

How the results depend on the processing

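At 30 min no member was called in any alternative, and the count over all genes, 1 as reported, was 0 with no filter, 2 with at least 5 RPKM, median scaling, quantile normalization or all 10 libraries, 8 with the replicate block and 13 with voom (10 reads or more) and the block. At 2 h the count of 866 became 53 with no filter, 397 with at least 5 RPKM, 2129 with the replicate block, 2079 with voom (10 reads or more) and 3516 with voom and the block. With no filter 1 member was called at 2 h, and GADD45A at 2.25, GADD45B at 1.96 and PPP1R15B at 0.34 missed the threshold, as did PPP1R15B at 0.34 with all 10 libraries. PPP1CC turned to -0.000706 with voom (10 reads or more) and to -0.000359 with voom and the block. The 107 genes called for the difference became 361 with no filter, 36 with at least 5 RPKM, 1255 with the replicate block, 69 with voom (10 reads or more) and 2027 with voom and the block. There GADD45A (2.36) and PPP1R15A (1.06) missed the threshold with voom (10 reads or more), which left 1 member called. Voom on genes averaging 1 RPKM or more kept both calls (adjusted p = 0.0378 and 0.0449 in limma's voom). PPP1R15A (1.03) missed the threshold with quantile normalization. PPP1R15B passed it with the replicate block (0.30) and with voom and the block (0.36). The block changed no other call of a member. The causes of these changes were not tested.

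Without 1 library at a time, 30 min values ran from -0.28 to 0.19 for GADD45A, -0.23 to 0.0588 for GADD45B and -0.0406 to 0.0858 for PPP1R15B, with 0 to 2 genes called. At 2 h PPP1R15B ran from 0.29 to 0.38, with 3 to 4 members called. The 2 h count was 328 without merbarone replicate 1, 398 without merbarone replicate 2, 2464 without untreated replicate 1 and 1311 without untreated replicate 2. PPP1CB ran from -0.0946 to 0.17, PPP1CC from -0.11 to 0.11 and EIF2AK2 from -0.0669 to 0.22. The difference ran from 2.05 to 2.53 for GADD45A and 0.95 to 1.13 for PPP1R15A, with 1 to 3 members and 38 to 86 genes called: 38 and 42 without merbarone 2 h replicates 2 and 1, 47 without untreated replicate 2, and 62 without merbarone 30 min replicate 2 or 3. Depth limits GADD45G, at 0 of 11956652 to 38225538 reads.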
